A study of Mus musculus with 27 samples.

Results

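The 10 genes described here are mouse genes known as fasting-inducible targets of the nuclear receptor PPAR alpha: Cyp4a10, Cyp4a14, Cyp4a31, Acot1, Acot2, Acot3, Acot4, Vnn1, Fgf21 and Pdk4. They were chosen by name, out of 51826 genes in the deposited tables, and all 10 passed the filter on low counts. Whole livers of wild-type BALB/C mice, a common inbred strain, were profiled by bulk RNA sequencing at 7 stages of a reproductive cycle. Breeding was at 10 to 12 weeks of age, litters were evened in size, and pups were taken away between day 10 and day 14 of lactation. The stages were nulliparous (NUL, never having borne young, 4 animals), day 10 of lactation (LAC, 3 animals), days 2, 4, 6 and 8 after weaning (ID2, 3 animals; ID4, 4 animals; ID6, 6 animals; ID8, 3 animals) and 4 weeks after weaning (REG, regressed, 4 animals). The animals were age-matched and no group carried an altered allele or was given an agent. Each of the 27 animals gave 1 library. Animals are named by stage and by the number in the sample title, such as ID2_39. Nothing in the labels tells whether the mice had food before the liver was taken, or at what hour that was.

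PPAR alpha is a receptor that binds fatty acids and pairs with RXR on DNA. During fasting, fatty acids from adipose tissue reach the liver, and the receptor raises genes for their transport, oxidation and conversion to ketone bodies. The Cyp4a enzymes hydroxylate fatty acids at the far end of the chain, the Acot enzymes split fatty acyl-CoA into free fatty acid and CoA, and Vnn1 takes part in the turnover of CoA. Fgf21 is a hormone that the liver secretes in fasting, and Pdk4 is a kinase that blocks pyruvate dehydrogenase and so spares glucose. Weaning ends the demand of milk production on the liver.

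The expected counts of a library summed to between 41120600 and 75664500. Transcripts of hepatocytes, such as Alb (albumin), were abundant in every library: the 10 hepatocyte markers summed to 135000 to 165000 CPM (the count scaled to a fixed library total) in NUL, 229000 to 276000 in LAC, 178000 to 198000 in ID2 and 126000 to 203000 in the later stages. The 7 markers of macrophages summed to 271 to 350 CPM in NUL, 190 to 260 in LAC, 251 to 302 in ID2, 439 to 462 in ID4, 358 to 533 in ID6, 321 to 387 in ID8 and 289 to 365 in REG, with none at 0. At ID4 and ID6 they lay above every NUL animal, and their part in the results at those stages was not tested. Those of the exocrine pancreas, a tissue that also makes Fgf21, summed to 2080 CPM in ID2_31 and 163 in ID4_15, and to 49.9 or less in the other 25 libraries. Kidney markers, from another site of Cyp4a expression, summed to at most 2.51 CPM with up to 6 of 7 at 0, and adipose markers to at most 12.8 CPM. In bulk tissue, fewer cells of a type and less RNA per cell cannot be told apart. Title numbers under 200 were borne by 2 of 3 ID2, 2 of 4 ID4 and 3 of 3 ID8 animals and by no other animal, and what the number stands for is not given. A score of circadian clock genes was taken as the mean standardised level of 9 day-arm genes minus that of 5 night-arm genes. The score was 4.65 in ID2_39 and between -2.13 and 1.94 in the other libraries. Against NUL, 4 of 9 day genes rose and 2 of 5 night genes fell at ID2 (of all genes 2.32% rose and 0.919% fell). The p-values below measure the spread between these animals, whose litters or cages the labels do not give.

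Of the 10 genes, 7 differed between stages in edgeR's joint test over the 7 groups (adjusted p under 0.05, against 27% of all 16428 genes tested). Acot1 had the smallest adjusted p of the 10 in edgeR's test (0.000211), followed by Cyp4a31 (0.000324), Cyp4a10 (0.000852), Pdk4 (0.00136), Cyp4a14 (0.00242), Acot2 (0.0235) and Vnn1 (0.0389). Fgf21 (0.178), Acot3 (0.305) and Acot4 (0.353) did not pass. Cyp4a10 and Cyp4a31 rose and Vnn1 fell in lactation. Cyp4a10, Cyp4a31, Acot1 and Pdk4 fell from LAC to ID2. Acot1, Pdk4 and Cyp4a14 were lower than in NUL at 1 or more days after weaning, Pdk4 rose from ID4 to ID6, and Acot1 and Acot2 rose from ID6 to ID8, a step in which Cyp4a10 and Cyp4a31 narrowly missed the threshold. On the scale of TPM, which corrects for length, the mean over all 27 libraries ranged from 65.1 for Cyp4a10, 37.7 for Cyp4a14 and 31.7 for Acot3 down to 3.40 for Vnn1 and 2.94 for Fgf21.

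**Figure D1:**
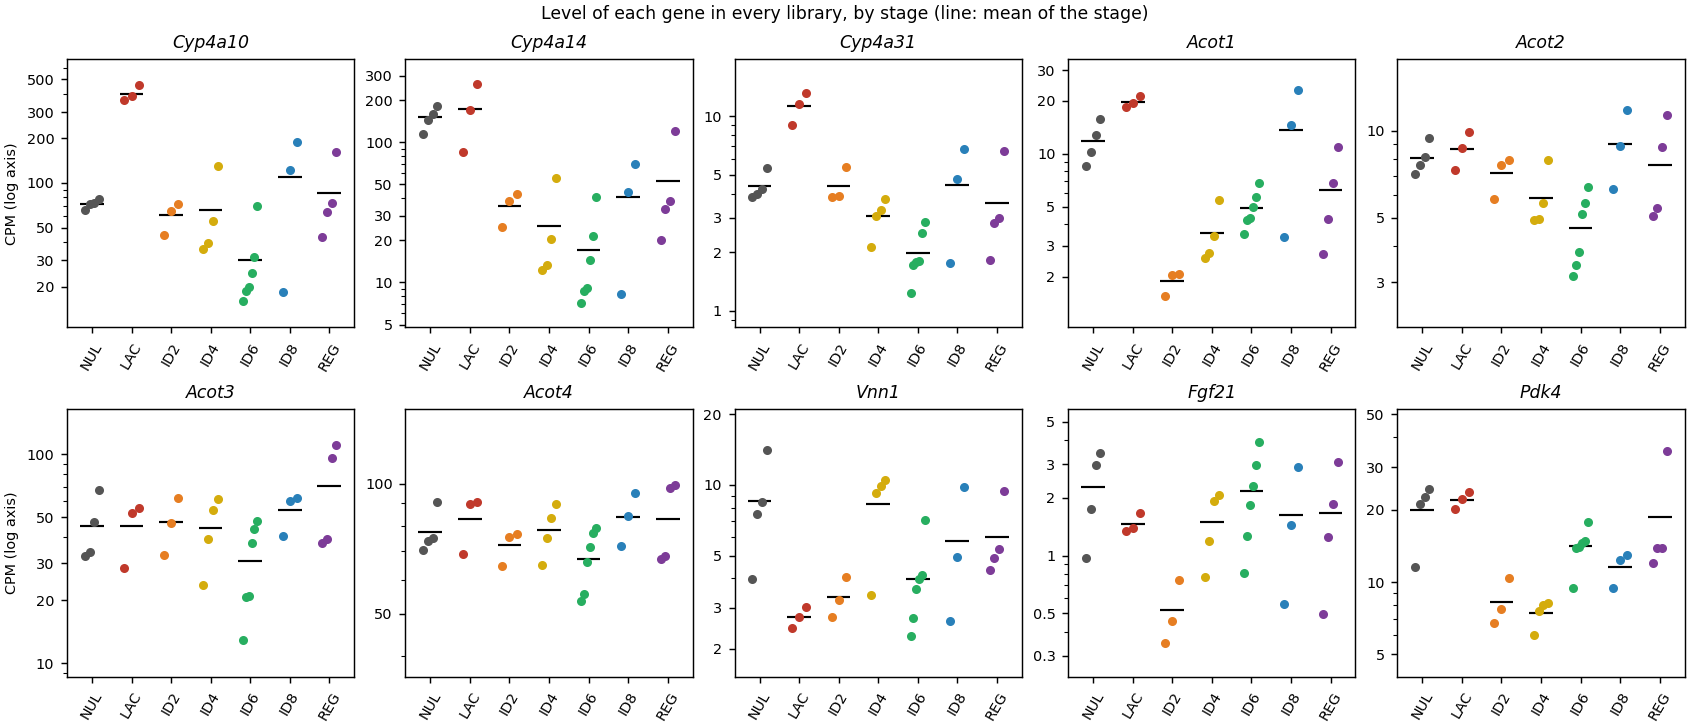
Level of each gene in CPM (log axis, a separate scale for each gene) in every library, by stage from nulliparous (NUL) to regressed (REG). Each point is 1 animal and each line the stage mean; Cyp4a10 lies between 361 and 457 CPM in lactation, and Acot1 between 1.54 and 2.06 CPM 2 days after weaning.

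Counted by comparison, lactation against nulliparous gave 2 of the 10 genes higher and 1 lower (11.2% of all genes tested were called, 5.19% higher and 6.00% lower), with a median log2 fold change of 0.12 over the 10 genes and -0.01 over all genes. Against nulliparous, 2 of 10 were lower at ID2 (of all genes 3.24% called, 2.32% higher and 0.919% lower; median -0.76), 3 of 10 lower at ID4 (4.25% called, 2.64% higher and 1.61% lower; median -0.48) and 1 of 10 lower at ID6 (1.08% called, 0.402% higher and 0.682% lower; median -0.95). At ID6 the fold change was negative for all 10 genes, against 49.2% of all genes tested, whose median was 0.00. At ID8 (0.499% of all genes called, median 0.07) and in REG (0.0852%, median -0.20) edgeR called 0 of 10 and DESeq2 also called 0. In each, 2 of 10 had an unadjusted p under 0.05. The share of all genes at that unadjusted cut was not taken, so the 2 of 10 cannot be read against it. From LAC to ID2, 4 of 10 fell and none rose (16.1% of all genes called, 8.48% higher and 7.64% lower; median -1.38). These comparisons share their NUL or LAC animals.

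Between successive stages after weaning, 0 to 2 of the 10 genes were called. From ID2 to ID4 edgeR and DESeq2 called 0 of 10 (1.49% of all genes in edgeR), with 2 of 10 at an unadjusted p under 0.05. From ID4 to ID6, 1 of 10 rose (8.53% of all genes called, 3.89% higher and 4.64% lower), and from ID6 to ID8, 2 of 10 rose (4.12% called, 2.37% higher and 1.75% lower; median 0.89). From ID8 to REG both tools called 0 of 10 (0.0487% in edgeR), with 2 of 10 at an unadjusted p under 0.05. These unadjusted counts too lack the share of all genes at that cut. All ID8 animals have title numbers under 200, and all NUL, LAC, ID6 and REG animals 200 or over. Between ID8 and any of these 4 stages, the stage and the number series cannot be told apart.

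Among animals numbered 200 or over, with 1 animal left at ID2, 2 at ID4 and none at ID8, the fold changes kept their sign and came close to the full values. Called there were the fall of Acot1 from LAC to ID2 (-3.27, edgeR adjusted p = 0.025), the lactation changes of Cyp4a10 (2.47, adjusted p = 0.0108), Cyp4a31 (1.36, adjusted p = 0.0116) and Vnn1 (-1.64, adjusted p = 0.0399), and that of Cyp4a14 at ID6 (-3.16, adjusted p = 0.0219). Not called there were Acot1 at ID2 (-2.52, adjusted p = 0.324) and ID4 (-1.55, adjusted p = 0.137), Cyp4a14 at ID4 (-2.14, adjusted p = 0.311) and Pdk4 at ID2 (-1.37, adjusted p = 0.663) and ID4 (-1.31, adjusted p = 0.156) against NUL. From LAC to ID2, Cyp4a10 (-2.49, adjusted p = 0.202), Cyp4a31 (-1.56, adjusted p = 0.142) and Pdk4 (-1.51, adjusted p = 0.179), and Pdk4 from ID4 to ID6 (0.80, adjusted p = 0.315), were not called there either. The lone ID2 animal is taken to vary like the other stages.

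**Figure D2:**
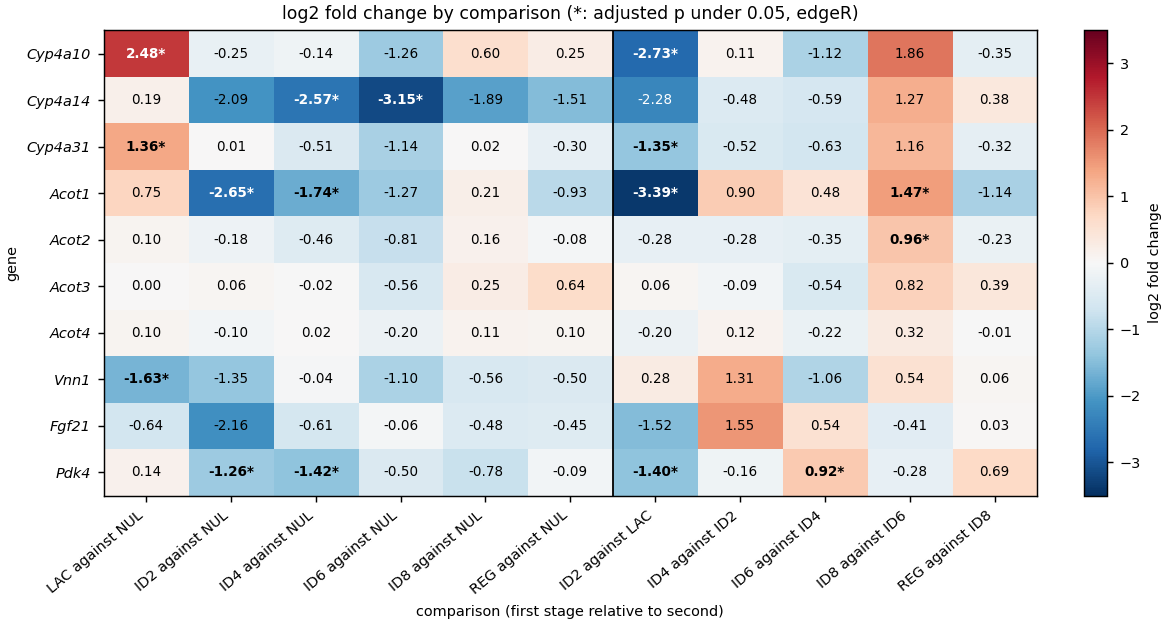
Log2 fold change of each gene (vertical) in 11 comparisons of stages (horizontal), the first stage relative to the second, with an asterisk where edgeR's adjusted p was under 0.05. The ID6 column against NUL holds 10 negative values, and the largest falls are those of Acot1 from LAC to ID2 (-3.39) and of Cyp4a14 from NUL to ID6 (-3.15).

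The 3 Cyp4a genes lie in 1 cluster on chromosome 4 (GRCm38, GENCODE vM21). Cyp4a14 occupies bases 115486200 to 115496142 on the reverse strand, Cyp4a10 bases 115518264 to 115533649 and Cyp4a31 bases 115563649 to 115579015 on the forward strand. Near-identical sequence makes part of their counts an estimate. Of all 50-base stretches of its transcripts, 29.8% in Cyp4a10 and 20.6% in Cyp4a31 also occur in another gene, chiefly Cyp4a32, against 0.235% in Cyp4a14.

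Cyp4a10 was higher in each lactating animal than in any of the other 24. It stood at 73.1, 78.1, 65.2 and 72.0 CPM in NUL and at 361, 457 and 386 CPM in LAC. It was back at 71.8, 65.1 and 44.4 CPM at ID2. The LAC animals lay far above, and the NUL and ID2 ranges overlap. Cyp4a10 rose in lactation by 2.48 on the log2 scale (SE 0.62, edgeR adjusted p = 0.0125) and fell by 2.73 from LAC to ID2 (SE 0.70, adjusted p = 0.0113). The rise was called without any 1 animal; the fall was not called without ID2_39 (adjusted p = 0.0548), with the clock score in the model (-2.03, adjusted p = 0.116) or with a term for title numbers under 200 (-2.27, adjusted p = 0.105).

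Later stages held wide spreads of Cyp4a10. ID4 had 55.5, 35.6, 39.1 and 131 CPM, and the 6 ID6 animals had a lowest value of 15.9, a median of 22.3 and a highest value of 69.7 CPM. ID8 had 122, 18.4 and 188 CPM, and REG had 63.8, 73.1, 163 and 43.1 CPM. In ID4 and in REG 1 animal each, and in ID8 2 animals, exceeded every NUL animal, while 5 of 6 ID6 animals lay below all of them. In order of mean level the stages ran LAC (401), ID8 (109), REG (85.7), NUL (72.1), ID4 (65.3), ID2 (60.4) and ID6 (30.1 CPM), and only the first step was free of overlap between neighbours. None of the contrasts of ID4, ID6, ID8 or REG with NUL passed the test for Cyp4a10; the largest difference was -1.26 at ID6 (SE 0.51, edgeR adjusted p = 0.310). From ID6 to ID8 Cyp4a10 differed by 1.86 and narrowly missed the threshold (edgeR adjusted p = 0.0576). It was called there in DESeq2 (0.0198), with the clock score (0.0385) and without ID6_232 (0.0266) or ID8_14 (0.0111). These were the highest ID6 and the lowest ID8 animal. No other setting called it, the title number term included.

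Cyp4a31, a paralogue of Cyp4a10, was also high in lactation. Its values were 4.23, 3.99, 5.41 and 3.85 CPM in NUL, 9.02, 13.1 and 11.6 CPM in LAC, and 3.82, 5.45 and 3.90 CPM at ID2. The LAC animals lay above the others, and NUL and ID2 overlapped. It rose by 1.36 on the log2 scale in lactation (SE 0.37, edgeR adjusted p = 0.0178) and fell by 1.35 to ID2 (SE 0.40, adjusted p = 0.0249). The rise was not called without LAC_213 (adjusted p = 0.0785) or LAC_240 (0.0528), and the fall not without ID2_224, ID2_39, LAC_213 or LAC_240 (0.0542 to 0.0936). The fall was also lost with the clock score (-0.99, adjusted p = 0.218), the title number term (-1.30, adjusted p = 0.129) and no count filter (adjusted p = 0.0535). At ID6 it ranged from 1.23 to 2.85 CPM, below every NUL animal, with a log2 fold change of -1.14 that missed the threshold (SE 0.32, edgeR adjusted p = 0.0829) but passed in DESeq2 (0.0238) and with the 2 groups alone (0.0147). From ID6 to ID8 Cyp4a31 differed by 1.16 (edgeR adjusted p = 0.0578). That value was called in DESeq2 (0.0232), with the clock score (0.0473) and without ID8_14 (0.00752), the lowest ID8 animal. No other setting called it, the title number term included.

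Cyp4a14 followed another course: its stage means were high in NUL and LAC (151 and 172 CPM) and 52.9 CPM or less in every stage after weaning. NUL animals had 145, 183, 160 and 114 CPM and LAC animals 85.4, 169 and 262 CPM. After weaning it stood at 43.1, 37.9 and 24.9 CPM at ID2, and at 20.3, 12.2, 13.3 and 55.8 CPM at ID4. ID6 had a lowest value of 7.16, a median of 11.8 and a highest value of 40.6 CPM. All ID2, ID4 and ID6 animals lay below all NUL animals. At ID2 the difference of Cyp4a14 from NUL was -2.09 and did not pass (SE 0.77, edgeR adjusted p = 0.152), but did with the 2 groups alone (0.00745). The difference from LAC to ID2 was -2.28 (edgeR adjusted p = 0.0568; DESeq2 adjusted p = 0.0249). Cyp4a14 fell by 2.57 on the log2 scale from NUL to ID4 (SE 0.70, edgeR adjusted p = 0.0409) and by 3.15 from NUL to ID6 (SE 0.62, adjusted p = 0.0117). The value at ID6 held without any 1 animal; the one at ID4 was not called without ID4_13, ID4_15, ID4_211 or any 1 of the 4 NUL animals (adjusted p 0.0602 to 0.113). Nor was the ID4 value of Cyp4a14 called with the title number term (-2.24, adjusted p = 0.158), the clock score (-2.35, adjusted p = 0.0609), a sequencing run term (0.053), no count filter (0.0669) or the 2 groups alone (0.063).

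At ID8 Cyp4a14 stood at 44.5, 8.29 and 69.5 CPM and in REG at 33.3, 38.3, 120 and 20 CPM. Only REG_234 reached the NUL range. The contrasts with NUL did not pass at ID8 (-1.89, SE 0.76, edgeR adjusted p = 0.299) or in REG (-1.51, SE 0.68, adjusted p = 0.657), with 95% intervals of -3.47 to -0.30 and -2.92 to -0.10. Nor did lactation differ from NUL for Cyp4a14 (0.19, SE 0.71, adjusted p = 0.911; 95% interval -1.29 to 1.67).

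The count ratio of Cyp4a10 to Cyp4a14 set the nulliparous animals apart from all others. It was 0.408 to 0.629 in the 4 NUL animals and 1.15 to 4.22 in the 23 animals of the later stages, with a median of 2.18. Each stage after NUL lay above it: LAC at 1.47 to 4.22, ID2 at 1.67 to 1.78, ID4 at 2.35 to 2.94, ID6 at 1.15 to 2.27, ID8 at 2.22 to 2.74 and REG at 1.36 to 2.15. In REG the ratio thus remained outside the NUL range 4 weeks after weaning. Among animals with title numbers of 200 or over, 16 outside NUL, the range was again 1.15 to 4.22. With the counts of Cyp4a31 and Cyp4a32 added to those of Cyp4a10, NUL ranged from 0.539 to 0.84 and the others from 1.58 to 4.5.

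This ratio was chosen after its values were seen and carries no test. Of the 45 pairs among the 10 genes, 2 had NUL apart from the 23 others: Cyp4a10 with Cyp4a14, and Cyp4a14 with Cyp4a31. Over all genes tested, the ratio of Cyp4a14 to another gene set NUL apart for 0.426% of 16427 genes, and that of Cyp4a10 to another gene for 0.00609%, which is 1 gene, Cyp4a14 itself.

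**Figure D3:**
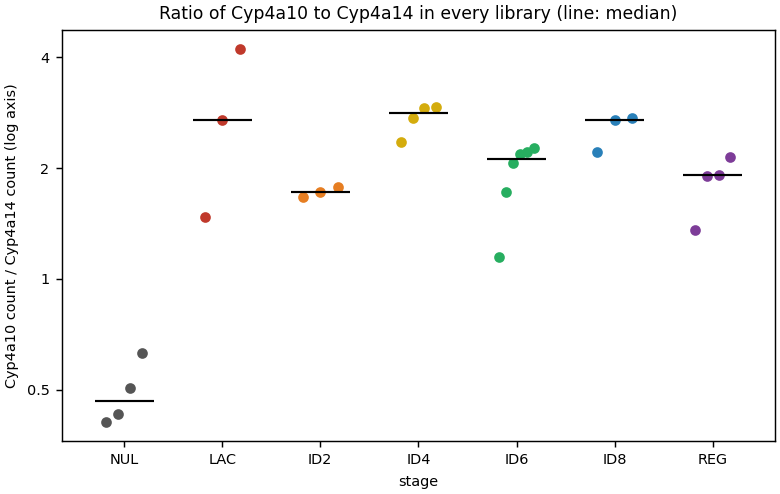
Expected count of Cyp4a10 divided by that of Cyp4a14 (log axis) in each of the 27 animals, by stage, with the stage median as a line. The 4 NUL animals lie between 0.408 and 0.629, and the 23 other animals between 1.15 and 4.22.

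Acot1 to Acot4 form a cluster on chromosome 12 (GRCm38, GENCODE vM21): Acot2 at bases 83987861 to 83993873, Acot1 at 84009490 to 84018371, Acot4 at 84038379 to 84048601 and Acot3 at 84052144 to 84060402, all on the forward strand. Acot1 is the cytosolic enzyme, Acot2 the mitochondrial one, and Acot3 and Acot4 are peroxisomal. RefSeq promoters (GRCm38.p6) were at hand for Acot1, Acot2, Acot3, Acot4, Fgf21 and Pdk4. Those of 3 neighbours are shown because their edgeR calls differ: Acot1 fell after weaning and rose from ID6 to ID8, Acot2 was called in that late rise, and Acot4 passed in no comparison. Each run gives the 250 bases before the start, forward strand, with capitals at the stretch closest to a direct repeat of AGGTCA with 1 free base between the copies, the site of PPAR alpha and RXR. It was searched on both strands, and mismatches were counted over the 12 fixed positions.
Acot1, chr12:84009252-84009501: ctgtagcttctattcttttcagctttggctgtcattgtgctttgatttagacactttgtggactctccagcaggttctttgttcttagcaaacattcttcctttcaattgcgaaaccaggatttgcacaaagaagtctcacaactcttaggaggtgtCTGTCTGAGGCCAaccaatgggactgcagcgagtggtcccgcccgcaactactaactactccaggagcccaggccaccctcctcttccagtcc
Acot2, chr12:83987611-83987860: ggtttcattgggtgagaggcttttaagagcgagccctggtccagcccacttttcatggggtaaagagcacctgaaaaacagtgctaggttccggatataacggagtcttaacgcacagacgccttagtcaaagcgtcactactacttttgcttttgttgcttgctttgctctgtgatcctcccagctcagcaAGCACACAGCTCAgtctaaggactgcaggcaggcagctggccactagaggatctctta
Acot4, chr12:84038129-84038378: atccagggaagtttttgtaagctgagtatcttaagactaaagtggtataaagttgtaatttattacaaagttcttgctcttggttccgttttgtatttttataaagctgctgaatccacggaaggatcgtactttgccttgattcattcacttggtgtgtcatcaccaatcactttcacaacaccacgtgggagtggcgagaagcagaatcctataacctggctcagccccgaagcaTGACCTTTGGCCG
In Acot4 the closest stretch has 2 mismatches, lies on the reverse strand and spans the 13 bases next to the start; 3.24% of 32851 RefSeq promoters hold one that close. Acot2 has 3 mismatches (21.3% of promoters) and Acot1 has 4, as do Acot3, Fgf21 and Pdk4 (74.5% of promoters). These matches are descriptions of letters in 1 window, not sites.

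Acot1 had the largest called fall of the 10 genes in the 11 comparisons run. It measured 8.54, 15.7, 12.8 and 10.2 CPM in NUL and 18.5, 21.4 and 19.6 CPM in LAC. At ID2 it had dropped to 2.06, 2.04 and 1.54 CPM, from 76 to 148 reads. All ID2 animals lay far below all NUL and LAC animals, and all LAC animals above all NUL animals. The fall from LAC to ID2 was 3.39 on the log2 scale (SE 0.55, edgeR adjusted p = 0.000347) and was called without any 1 animal. From NUL to ID2 Acot1 fell by 2.65 (SE 0.52, edgeR adjusted p = 0.00634). That call was lost without ID2_39, the animal with the high clock score (-2.53, adjusted p = 0.0537), with the clock score in the model (-1.58, adjusted p = 0.25) and with the title number term (-2.41, adjusted p = 0.0926). The difference of LAC from NUL did not pass (0.75, SE 0.45, adjusted p = 0.338), but did with the 2 groups alone (adjusted p = 0.0322).

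From ID2 on, the mean level of Acot1 was higher at each later day. ID4 animals had 3.39, 2.56, 2.74 and 5.43 CPM, above all ID2 animals. ID6 animals had a lowest value of 3.49, a median of 4.66 and a highest value of 6.78 CPM. ID8 animals had 14.6, 3.38 and 23.1 CPM, of which 1 lay among ID4 values and 1 above every NUL animal. REG animals had 2.69, 4.24, 11 and 6.80 CPM, reaching the NUL range in REG_234 only.

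Relative to NUL, Acot1 fell by 1.74 at ID4 (SE 0.44, edgeR adjusted p = 0.0262), which was not called without ID4_13, ID4_15, ID4_211, NUL_221 or NUL_226 (adjusted p 0.0599 to 0.0784), with the title number term (-1.58, adjusted p = 0.122) or with effective lengths as offset (0.0556). At ID6 the difference was -1.27 (SE 0.38, adjusted p = 0.121); it was called in DESeq2 (0.0391), with the clock score (0.0272) and with the 2 groups alone (0.00856). From ID6 to ID8 it rose by 1.47 (SE 0.41, edgeR adjusted p = 0.0460), a call lost without either of ID8_101b and ID8_98b or any 1 of the 6 ID6 animals (adjusted p 0.0607 to 0.37), with a change of 0.85 without ID8_98b. It was also lost with no count filter, limma on TPM, effective lengths, a sequencing run term or the 2 groups alone (adjusted p 0.0551 to 0.168). The title number term ended the call as well (1.83, edgeR adjusted p = 0.212). No single step between ID2, ID4 and ID6 passed for Acot1 (0.90 and 0.48).

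Acot2 moved over a narrower range, from 3.14 CPM in ID6_209 to 11.8 CPM in ID8_98b. ID6 animals had a lowest value of 3.14, a median of 4.50 and a highest value of 6.41 CPM, and ID8 animals had 8.85, 6.32 and 11.8 CPM. One ID8 animal lay within the ID6 range. Acot2 rose from ID6 to ID8 by 0.96 (SE 0.24, edgeR adjusted p = 0.0258). That call was lost without ID6_209, ID8_101b or ID8_98b (adjusted p 0.0602 to 0.191). It was also lost with no count filter, limma on TPM or the 2 groups alone (adjusted p 0.0519 to 0.065). The title number term ended the call as well (0.90, edgeR adjusted p = 0.269). Every ID6 animal was below every NUL animal (7.08 to 9.43 CPM), with a difference of -0.81 that missed the threshold (SE 0.22, adjusted p = 0.0768) but passed in DESeq2 (0.012), with the clock score (0.0421) and without ID6_232 (0.0431).

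Acot3 and Acot4 were the abundant members of the cluster and passed in no comparison. Acot3 ranged from 12.9 CPM in ID6_216 to 110 CPM in REG_239, and its stages overlapped throughout. Acot4 ranged from 53.6 CPM in ID6_216 to 99.4 CPM in REG_234. From NUL to ID2, where Acot1 fell, the difference was 0.06 for Acot3 (95% interval -0.90 to 1.03) and -0.10 for Acot4 (95% interval -0.43 to 0.22). Neither interval reaches the change of Acot1.

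Part of the Acot signal is shared: 19.2% of 50-base stretches of Acot1 and 27.7% of those of Acot2 occur in another gene, mostly in each other, and Acot1 counts were fractional in 26 libraries. The summed counts of Acot1 to Acot4 did not pass in any comparison (from LAC to ID2 -0.29, SE 0.28, edgeR adjusted p = 0.534), since Acot3 and Acot4 make up most of the sum. The summed counts of Cyp4a10, Cyp4a14, Cyp4a31 and Cyp4a32 fell from LAC to ID2 by 2.48 (SE 0.68, edgeR adjusted p = 0.0168). Against NUL, their 1.31 in lactation did not pass (SE 0.60, adjusted p = 0.186). Nor did their -1.20 at ID4 (SE 0.56, adjusted p = 0.260) or -1.92 at ID6 (SE 0.50, adjusted p = 0.0713), stages at which Cyp4a14 alone was called. Of 7 further Cyp4a and Acot copies, 2 had enough counts to test. Of these, Acot6 rose in lactation by 0.78 (SE 0.23, edgeR adjusted p = 0.0230), and Cyp4a32 was called in no comparison.

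Vnn1, a pantetheinase, is on chromosome 10 (bases 23894688 to 23905343). It had 3.97, 8.50, 14.1 and 7.52 CPM in NUL, 2.74, 3.03 and 2.46 CPM in LAC, and 4.04, 2.73 and 3.24 CPM at ID2. At ID4 it stood at 9.87, 10.5, 3.39 and 9.28 CPM. LAC animals lay below all NUL animals, ID2 overlapped both, and 3 of 4 ID4 animals were back in the NUL range. Vnn1 fell in lactation by 1.63 on the log2 scale (SE 0.49, edgeR adjusted p = 0.0330). That call was lost without LAC_200, LAC_213, LAC_240, NUL_221 or NUL_226 (adjusted p 0.0543 to 0.113) and with no count filter (0.0574). The difference between ID2 and ID4 was 1.31 (SE 0.48, edgeR adjusted p = 0.199). Vnn1 was thus low in the stage in which Cyp4a10 was high.

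Fgf21, on chromosome 7 (bases 45613886 to 45615490), gave the fewest reads, 22 to 270 a library. It had 0.976, 3.43, 2.98 and 1.76 CPM in NUL, 1.66, 1.39 and 1.35 CPM in LAC, and 0.349, 0.455 and 0.749 CPM at ID2. All ID2 animals lay below all NUL and LAC animals. The difference of ID2 from NUL was -2.16 (SE 0.65, edgeR adjusted p = 0.0700) and did not pass, but was called in DESeq2 (0.0125), with the 2 groups alone (0.0388) and without NUL_220 (0.048). From LAC to ID2 it was -1.52 (edgeR adjusted p = 0.136; 0.011 with the 2 groups alone). ID2_31, with the pancreas transcripts, had neither the highest nor the lowest Fgf21 of its stage. In the 6 other stages the means of Fgf21 ran from 1.47 CPM in LAC to 2.29 CPM in NUL, and neighbours in that order overlapped.

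Pdk4, on chromosome 6 (bases 5483351 to 5496309), was low at ID2 and ID4. It had 21.2, 24.5, 11.6 and 22.5 CPM in NUL and 23.7, 22.1 and 20.2 CPM in LAC. At ID2 it had 7.75, 10.4 and 6.74 CPM, and at ID4 7.54, 6.04, 8.16 and 8.05 CPM. All 7 animals of ID2 and ID4 lay below all 7 of NUL and LAC. Pdk4 fell from NUL to ID4 by 1.42 (SE 0.28, edgeR adjusted p = 0.00501) and from LAC to ID2 by 1.40 (SE 0.33, adjusted p = 0.00601), and neither call was lost without any 1 animal. From NUL to ID2 it fell by 1.26 (SE 0.31, edgeR adjusted p = 0.0271), which was not called without ID2_224, ID2_39, NUL_221 or NUL_227 (adjusted p 0.0625 to 0.157), with the title number term (-1.20, adjusted p = 0.191), or with no count filter, limma on TPM, effective lengths or the 2 groups alone (adjusted p 0.0531 to 0.0698). With the clock score in the model the ID2 differences were -0.57 from NUL (adjusted p = 0.562) and -0.83 from LAC (adjusted p = 0.135).

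By ID6 Pdk4 had a lowest value of 9.42, a median of 14.3 and a highest value of 17.8 CPM, above all ID4 animals. It rose by 0.92 from ID4 to ID6 (SE 0.26, edgeR adjusted p = 0.0316), which was not called without any 1 of the 4 ID4 animals or ID6_209, ID6_218, ID6_230 or ID6_232 (adjusted p 0.0541 to 0.0955). With the clock score it was 0.60 (adjusted p = 0.15) and with effective lengths 0.66 (0.181), and no count filter, limma on TPM, the title number term and a sequencing run term also ended the call (adjusted p 0.0523 to 0.122). Muscle markers, whose tissue also makes Pdk4, summed to 10.6 CPM in ID6_230 and to at most 1.84 CPM elsewhere; Pdk4 in ID6_230 was 14.8 CPM. ID8 animals had 9.40, 13 and 12.4 CPM, and REG animals 12.0, 13.9, 35.1 and 13.9 CPM, so that REG_234 exceeded all other 26 animals.

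Animals of 1 stage tended to be high or low in many of the 10 genes at once. After the stage means were subtracted, the correlation over the 27 libraries was positive for 45 of 45 gene pairs, with a median r of 0.55 and a range from 0.03 to 0.95. Cyp4a10 with Cyp4a14 had r = 0.93 (rho 0.88). The points share library, scaling and, for the Acot and Cyp4a genes, reads, so these values are a description. REG_234 was the highest REG animal in 9 of 10 genes and ID8_98b the highest ID8 animal in 9 of 10, whereas ID8_14 was the lowest of its stage in 9 of 10 and ID4_15 in 8 of 10. The same animals stood out among 39 other PPAR alpha targets: REG_234 was highest in 28, ID8_98b highest in 31, ID8_14 lowest in 34 and ID4_15 lowest in 26 of 39.

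**Figure D4:**
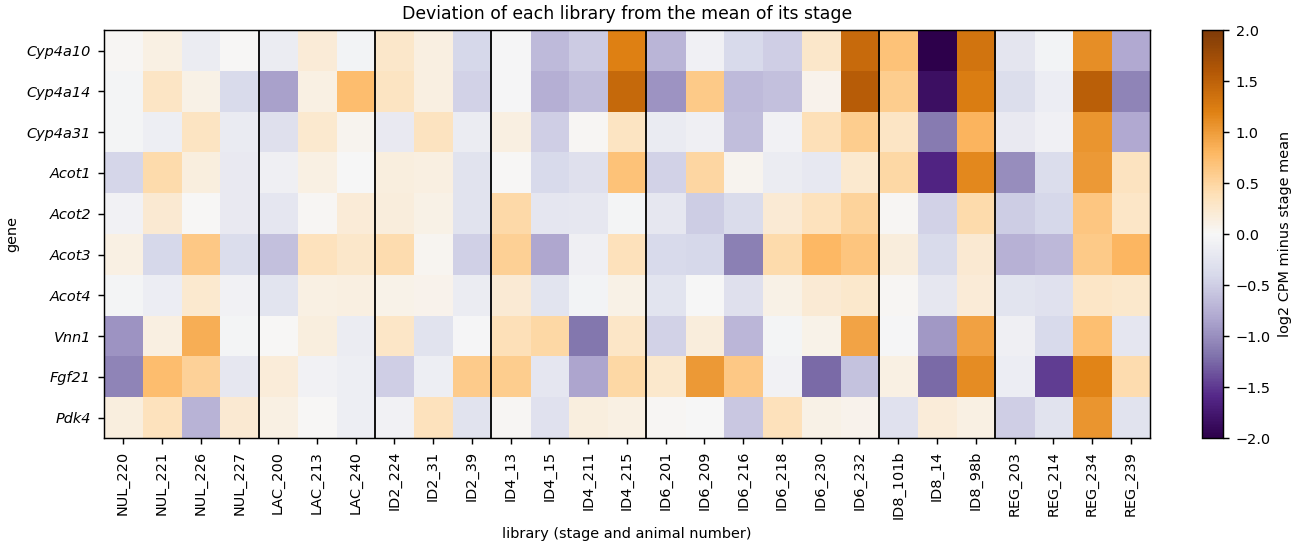
Deviation of each animal (horizontal, by stage) from its stage mean in log2 CPM for each gene (vertical); orange is above and purple below the mean. REG_234 and ID8_98b are orange in nearly every gene, and ID8_14 is purple in most.

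The wider set of PPAR alpha targets, 40 genes of fatty acid oxidation, ketogenesis and lipid handling with 39 tested, was followed beside the 10 genes. In lactation 2 rose and 5 fell (of all genes 5.19% and 6.00%; median log2 fold change -0.14). Cd36, a fatty acid transporter, rose by 1.27 (SE 0.20, edgeR adjusted p = 0.000232) and Ehhadh, of peroxisomal oxidation, by 0.49 (SE 0.13, adjusted p = 0.0136). Cpt1a, which admits fatty acids to mitochondria, fell by 0.70 (SE 0.19, adjusted p = 0.0198) and Txnip by 0.62 (adjusted p = 0.0137). Of these calls, Cpt1a was lost without 3 of 7 animals in turn (adjusted p up to 0.094, without LAC_200) and Txnip without 2 (0.0651, without LAC_240).

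At ID2, 0 of 39 rose and 4 fell against NUL (of all genes 2.32% and 0.919%; median -0.18). Fabp1, the liver fatty acid binding protein, fell by 0.97 (SE 0.15, edgeR adjusted p = 0.000549), Pex11a by 0.76 (adjusted p = 0.00634) and Acaa1b by 0.66 (adjusted p = 0.0429); the last 2 were not called without ID2_39 (adjusted p = 0.0537 and 0.275). Fabp1 was not called at ID2 against NUL with the clock score in the model (-0.58, adjusted p = 0.165) or among animals numbered 200 or over (-0.92, adjusted p = 0.164). At ID4 Fabp1 fell by 0.90 (edgeR adjusted p = 0.000300), Ehhadh by 0.57 (adjusted p = 0.00636) and Pex11a by 0.53 (adjusted p = 0.0307), while Cd36 rose by 0.93 (adjusted p = 0.00465). From LAC to ID2, 2 rose and 7 fell (of all genes 8.48% and 7.64%; median -0.05). Cpt1a rose by 1.16 (edgeR adjusted p = 0.000601) and Cidec, a lipid droplet protein, by 1.54 (adjusted p = 0.0175), while Fabp1 fell by 1.10 (adjusted p = 5.18e-05), Acaa1b by 0.96 (adjusted p = 0.00150) and Retsat by 0.90 (adjusted p = 0.0250). Cpt1a and Acot1, both targets of the receptor, thus changed in opposite directions from LAC to ID2. The calls of Pex11a at ID4 (adjusted p up to 0.0926, without ID4_15), Cidec (0.13, without ID2_31) and Retsat (0.0969, without ID2_31) did not hold without each animal.

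At ID6, 8 of 39 fell and none rose against NUL (of all genes 0.682% and 0.402%), 35 of 39 fold changes were negative (49.2% of all genes tested), and the median was -0.33. Ech1 fell by 0.53 (SE 0.11, edgeR adjusted p = 0.0117), Decr1 by 0.49 (SE 0.09, adjusted p = 0.00331) and Cpt2 by 0.47 (SE 0.10, adjusted p = 0.0117), all enzymes of fatty acid oxidation. From ID4 to ID6, 13 fell and 2 rose (of all genes 4.64% and 3.89%; median -0.25), among them Cpt1a (-0.68, edgeR adjusted p = 0.00966) and Acadm (-0.48, adjusted p = 0.00107); the 2 that rose were Ehhadh (0.44, adjusted p = 0.0146) and Fabp1 (0.41, adjusted p = 0.0441). Pdk4 rose in the same step. From ID6 to ID8, 5 rose and none fell (of all genes 2.37% and 1.75%; median 0.31), among them Decr1 by 0.46 (edgeR adjusted p = 0.00768) and Decr2 by 0.38 (adjusted p = 0.0413). At ID8 Cd36 alone was called against NUL (1.0, SE 0.20, edgeR adjusted p = 0.0225). That call was lost with the title number term (edgeR adjusted p = 0.328), and the number series also separates these 2 stages. Leaving out 1 animal ended the ID6 calls of Ech1 and Cpt2 (adjusted p = 0.0862 and 0.0656, without NUL_221), those of Ehhadh (0.0642, without ID4_13) and Fabp1 (up to 0.183, without ID4_15) from ID4 to ID6, those of Decr1 and Decr2 from ID6 to ID8 (up to 0.0811 and 0.295, without ID8_101b and ID8_98b) and that of Cd36 at ID8 (up to 0.113, without ID8_14).

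**Figure D5:**
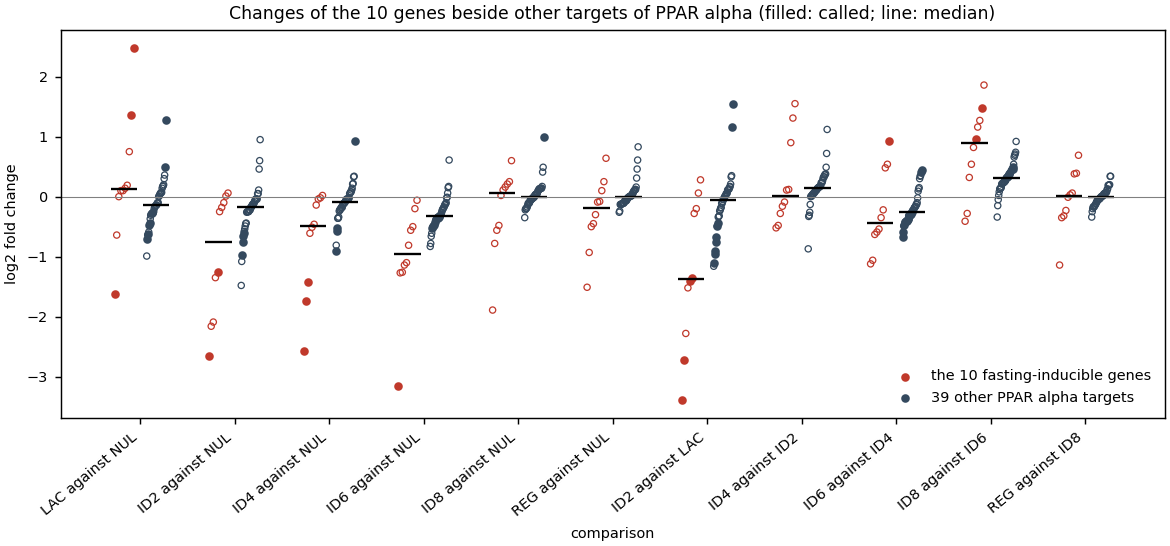
Log2 fold change (vertical) in 11 comparisons (horizontal) for the 10 genes (red) and the 39 other PPAR alpha targets tested (blue), with filled points where edgeR's adjusted p was under 0.05 and lines at the medians. At ID6 against NUL the medians are -0.95 and -0.33; from ID6 to ID8 they are 0.89 and 0.31.

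The receptor itself did not change by the test. Ppara averaged between 41.8 CPM in LAC and 58.2 CPM at ID8 (edgeR joint adjusted p = 0.192) and was called in none of 11 comparisons; in lactation its difference was -0.40 (SE 0.19, adjusted p = 0.196). Rxra, its partner, was 377 to 412 CPM in NUL, rose from LAC to ID2 by 0.37 (SE 0.10, adjusted p = 0.0149) and fell from ID4 to ID6 by 0.34 (SE 0.08, adjusted p = 0.0101). The fall of Rxra was lost with the clock score, the title number term, limma on TPM and among animals numbered 200 or over (adjusted p up to 0.113, in limma). Its rise was lost with the clock score and with the title number term. Ppargc1a, a coactivator that is induced by fasting, rose at ID2 by 1.03 against NUL (SE 0.24, edgeR adjusted p = 0.0142) and by 1.12 from LAC (SE 0.26, adjusted p = 0.00451), then fell by 0.81 from ID4 to ID6 (adjusted p = 0.0129). Ppard, a related receptor, fell by 1.29 at ID2 and by 1.13 at ID4 against NUL (edgeR adjusted p = 0.0118 and 0.0114) and rose by 1.37 from ID4 to ID6 (adjusted p = 0.00128). In lactation Ppargc1b fell by 0.87 (adjusted p = 0.0462) and Creb3l3 by 0.53 (adjusted p = 0.0369) against NUL, both lost without LAC_213 (0.248 and 0.133). Without ID2_39 neither Ppargc1a (adjusted p = 0.0568) nor Ppard (0.106) was called at ID2 against NUL, nor Rxra (0.0978) from LAC to ID2.

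Fasting also raises genes of glucose and amino acid metabolism through other regulators. Of 14 such genes, 5 rose and 2 fell from LAC to ID2 (of all genes 8.48% and 7.64%), with a median of 0.62. Pck1, the rate-limiting enzyme of gluconeogenesis, averaged 1640 CPM in NUL, 642 in LAC and 3050 at ID2, and rose by 2.25 from LAC to ID2 (SE 0.46, edgeR adjusted p = 0.00242). Sds, serine dehydratase, rose by 1.28 (SE 0.20, adjusted p = 0.000129) and Trib1 by 1.59 (SE 0.42, adjusted p = 0.0137), while Gadd45b fell by 2.36 (SE 0.43, adjusted p = 0.000828) and Cdkn1a by 1.03 (adjusted p = 0.0420). Pck1 and Sds rose in the step in which Acot1 and Pdk4 fell. In lactation against NUL, Pck1 fell by 1.36 (edgeR adjusted p = 0.0427) and Sds by 0.62 (adjusted p = 0.0285), and Gadd45b rose by 1.34 (adjusted p = 0.0225). These 3 lactation calls were lost without LAC_213 (adjusted p = 0.199 and 0.102) and LAC_240 (0.121), that of Trib1 without LAC_200 (0.0657) and that of Cdkn1a without LAC_213 (0.169), among others.

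Calls at ID2 outside the 10 genes were also lost with the clock score in the model or among animals numbered 200 or over, which leave 1 animal at ID2. Of the 6 calls against NUL examined in the 3 lists (receptor and partners, other targets, other fasting genes; up to 3 of largest change per list and direction), 6 were lost with the clock score in the model and 6 among animals numbered 200 or over. Of 14 such calls from LAC to ID2, 6 and 9 were lost, while those of Fabp1, Cpt1a, Ppargc1a, Pck1 and Sds held in both. At ID4 against NUL, 1 and 3 of 5 were lost, from ID4 to ID6, 3 and 3 of 8, and in lactation against NUL, 2 and 2 of 10. From ID6 to ID8, 3 of 6 were lost with the clock score, and at ID6 against NUL 0 of 3 were lost in either. The share of calls lost among all genes in these settings is not set beside these counts. The losses are therefore not read as a trait of the lists, and their cause was not tested.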

How the data were processed

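RNA of 27 mouse livers was sequenced, 1 library per animal (16 in 2 runs, 11 in 1). The submitters' processing notes name STAR 2.6.1a, RSEM 1.3.1, mm10 and GRCm38; use of strand is not given in the sources used here. The expected counts, per the file headers, are the authors' RSEM estimates, which divide reads among similar genes. TPM and the effective length, per the file headers, are the authors' length-scaled level and usable gene length. Symbols came from GENCODE vM21 (51633 of 51826 IDs).

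Expected counts were rounded, filtered by filterByExpr (16428 genes, at least 99.978% of counts), TMM-scaled and tested with edgeR 4.0.16 (R 4.3.3, robust quasi-likelihood, all libraries in 1 model), with Benjamini-Hochberg adjustment over all genes; a call is an adjusted p under 0.05. SE is the fold change over the root of F. DESeq2 1.42.0, limma 3.58.1 and other settings were alternatives. The common dispersion was 0.0360. The test was checked on simulated counts. The members and gene lists (receptor and partners, other targets, other fasting genes, copies, clock genes, cell markers) were chosen with earlier results of these data known. The text names all members, Ppara, Rxra and up to 3 rising and 3 falling called genes of largest change per list and comparison; some results under this rule are not reported here.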

Additional observations from a re-analysis of the deposited data

Results flagged for a closer look

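For 40 sets of 1 gene and 1 stage with 4 to 6 animals, the most extreme animal was compared with its stage. Chance marks about 1 set in 20, and 2 of 40 were marked. Cyp4a10 in ID6_232 was 69.7 CPM, with the gap to the next animal making up 0.708 of the range of the stage, above the limit of 0.625 for 6 animals. Pdk4 in REG_234 was 35.1 CPM, with 0.914 of the range against a limit of 0.829 for 4 animals.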

How the results depend on the processing

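No called fold change of a member or named list gene changed direction under any alternative run for it. Among uncalled values, the 0.06 of Acot3 at ID2 against NUL stands beside -0.15 for the summed Acot genes. The summed Cyp4a genes put NUL (243 CPM) above ID8 (175) and REG (166), unlike Cyp4a10 alone. The counts of members called given next are those more than 1.5 times away from the reported count. The share of all genes called in the same setting is not set beside them, nor beside the counts without 1 animal. They show only how the member calls move with the setting. Lactation against NUL (3 called) gave 0 at an adjusted p under 0.01. ID2 against NUL (2) gave 1 without the count filter, with limma on TPM plus 1 or plus 0.1, with effective lengths as offset and at 0.01, and 0 with a title number term, with the clock score and, added after the data were seen, in animals numbered 200 or over. ID4 against NUL (3) gave 1 with the title number term and at 0.01, and 0 in animals numbered 200 or over. ID6 against NUL (1) gave 4 in DESeq2, 3 with the clock score or with the 2 groups alone, and 0 at 0.01. LAC to ID2 (4) gave 2 with the title number term and at 0.01, and 1 with the clock score or in animals numbered 200 or over. ID4 to ID6 (1) gave 2 in DESeq2 and 0 without the filter, with limma at either pseudocount, with effective lengths, the title number, the clock score, at 0.01, in animals numbered 200 or over and, also added later, with a sequencing run term. ID6 to ID8 (2) gave 4 in DESeq2 or with the clock score, 1 with effective lengths or the run term, and 0 without the filter, with limma at either pseudocount, with the title number term, at 0.01 and with the 2 groups alone. The causes were not tested. Vnn1 from ID4 to ID6, not called in edgeR, was called in DESeq2 (adjusted p = 0.0473) and without ID4_211 (0.0399) or ID6_232 (0.0444).

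Leaving out 1 animal at a time gave 1 to 3 members in lactation, 0 to 3 at ID2, 1 to 3 at ID4 and 1 to 2 at ID6 against NUL, 2 to 4 from LAC to ID2, 0 to 1 from ID4 to ID6, 0 to 4 from ID6 to ID8, 5 to 7 in the joint test and 0 to 0 elsewhere. No paired analysis was possible because the stages share no animal numbers. Fgf21 had the fewest reads of the 10, with 22 to 37 at ID2.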

Other observations

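Some genes other than the 10 followed a member closely over the 27 libraries, among 10479 genes averaging 1 or more in log2 CPM. Retsat, an enzyme of retinol metabolism and itself a PPAR alpha target, was the closest to Cyp4a14 (r = 0.89, rho 0.88) and to Cyp4a10 (r = 0.85, rho 0.85), and Eps8l2 was the closest to Cyp4a31 (r = 0.85, rho 0.81). Fabp1 was the closest to Acot1 (r = 0.84, rho 0.84). Crat, carnitine acetyltransferase, was among the 3 closest genes for both Cyp4a14 (r = 0.80) and Acot1 (r = 0.81). Pdk4 had Snx7 (r = 0.80), Fgf21 had Tgoln1 (r = 0.81), Acot2 had Xrcc3 (r = 0.82) and Acot4 had Nceh1 (r = 0.73). The points share library and scaling, and the genes were picked as the closest, so these are descriptions.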
